A study of Mus musculus with 2 samples.

Results

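Type I interferon-stimulated genes were followed through the CD45+ cells of inflamed mouse spinal cord. The module was a list of 37 genes, and all 37 were among the 28482 genes of the deposited matrix. They were picked by name as interferon targets and not by their values in the contrast, but with earlier results of these data known. CD45 marks leukocytes and microglia. Experimental autoimmune encephalomyelitis (EAE), a mouse model in which the immune system attacks brain and spinal cord, was induced in 4 C57BL/6 mice, and the cells were taken at day 15. In the untreated group 2 mice received EAE induction and no inhibitor, and in the inhibitor group 2 mice received EAE induction and an inhibitor, for which the labels state neither name nor target nor dose. The series title also names STAP-1 mice, but the labels give every mouse as C57BL/6 and no genotype difference between the groups. The cells of the 4 mice carried antibody hashtags, were pooled, and went through 1 BD Rhapsody run with TAS-Seq amplification, so the mice share their library and sequencing. Each mouse is a separate animal, and n is 2 per group throughout.

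After filtering, 4347 and 4554 cells remained from the untreated mice and 5426 and 4929 from the inhibitor mice, with a median of 8214 to 8620 counts per cell. The 25461 cell columns all have different names, and the 3943 that carried more than 1 hashtag were left out. Cell classes were rebuilt by clustering the cells on genes other than the module and naming 33 of 35 clusters from marker lists, so "neutrophil" and the like mean cells resembling that type. The CD45 gene Ptprc was detected in 70.5% to 73.5% of each mouse's cells after thinning to 4000 counts, and least often in progenitors, at 22.2%. Neutrophils made up 24.2% and 19.0% of the untreated mice's cells and 62.9% and 37.9% of the inhibitor mice's cells. T cells made up 43.2% and 52.2% against 17.3% and 35.6%, so that a value over all cells carries this difference in composition. Levels are given as CPM, the counts of a gene per 1000000 counts of the summed cells of a class in a mouse. A CPM is not corrected for transcript length and is compared here between cells for the same gene, not between genes.

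Type I interferons are secreted by cells that sense foreign or misplaced nucleic acid. They bind the receptor IFNAR1-IFNAR2 on almost every cell type, which activates the kinases JAK1 and TYK2. The transcription factor complex ISGF3, which includes STAT2 and IRF9, then enters the nucleus and binds the interferon-stimulated response element, a repeat of GAAA steps in the promoters of the induced genes. The products block viral RNA and protein synthesis, sense nucleic acids, and tune the signal itself. In EAE and in multiple sclerosis the pathway has long been studied because interferon beta is a treatment for the human disease. Interferon gamma, made by T cells and NK cells, acts through another receptor and shares some of the target genes.

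The response element is visible in the members' own promoters. RefSeq promoter sequences (GRCm38.p6, from 250 bases before to 50 bases after the start) were given for 28 of the 37 members. The letters GAAANNGAAA, searched on both strands, occurred in the promoters of 16 of these 28 genes (57.1%), against 936 of 27025 genes in the whole table (3.46%). The match is a description of the letters and not a measured binding site. The windows below are shown because they belong to members whose levels differ most between the cells, or to related members with near-identical windows. Capitals mark the match, and TTTCNNTTTC is the same motif on the other strand.
Isg15, chr4:156200850-156200921, minus strand: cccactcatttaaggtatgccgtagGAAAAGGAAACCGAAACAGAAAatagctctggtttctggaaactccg
Ifit1, chr19:34640760-34640838, plus strand: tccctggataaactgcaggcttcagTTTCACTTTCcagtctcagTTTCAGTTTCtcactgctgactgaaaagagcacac
Ifit3, chr19:34583363-34583392, plus strand: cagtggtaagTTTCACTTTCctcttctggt
Ifit3b, chr19:34607759-34607788, plus strand: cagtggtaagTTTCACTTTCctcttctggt
Rsad2, chr12:26456538-26456597, minus strand: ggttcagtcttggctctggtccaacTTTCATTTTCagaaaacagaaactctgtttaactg
Oas3, chr5:120777700-120777759, minus strand: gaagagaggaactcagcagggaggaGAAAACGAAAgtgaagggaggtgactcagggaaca
Bst2, chr8:71537562-71537627, minus strand: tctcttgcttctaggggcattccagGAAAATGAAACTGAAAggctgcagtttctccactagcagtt
Stat2, chr10:128270251-128270310, plus strand: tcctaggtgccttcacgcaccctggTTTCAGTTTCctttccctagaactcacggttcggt
Ifi206, chr1:173491324-173491383, minus strand: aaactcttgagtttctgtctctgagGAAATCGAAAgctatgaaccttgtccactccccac
Ifi208, chr1:173673597-173673626, plus strand: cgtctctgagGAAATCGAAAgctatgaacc
Ifi213, chr1:173599326-173599355, minus strand: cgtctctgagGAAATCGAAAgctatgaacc

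The Isg15 window holds 3 overlapping copies of the motif, between 66 and 78 bases before the start, and the Bst2 window holds 2. Over 94 bases the Ifit3 and Ifit3b promoters were identical. Over 60 bases those of Ifi208 and Ifi213 were identical, and Ifi206 differed from each at 1 base. Promoter letters do not show whether reads can be told apart, and the transcripts were not compared. Levels of Ifit3 against Ifit3b, Ifit1 against Ifit1bl1, and Ifi206 against Ifi208 and Ifi213 are uncertain to the extent that the counting split reads of such related genes. Several members lie close together: the 5 PYHIN genes on chromosome 1, the 5 Ifit genes on chromosome 19, and on chromosome 5 Oasl1 beside Oasl2 and, in another block, Oas1a, Oas2 and Oas3. The letters were not found in the given windows of Slfn1, Irf7, Irf9, Ifit2, Isg20, Cmpk2, Xaf1, Ifih1, Ifi44, Ifi209, Oasl1 and Oasl2.

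The module was spread over all cell classes and was no property of a single one. The summed level of the 37 members averaged 5587 CPM in regulatory T cells (4928 to 6197 over the 4 mice), 4865 in plasmacytoid dendritic cells, 4671 in other dendritic cells, 3928 in CD8 T cells and 3520 in microglia. It was 1870 in neutrophils, 1684 in B cells and 1427 in NK cells, and it was lowest, at 470 CPM, in progenitors. Regulatory T cells lay above CD8 T cells in every mouse. The ranges of regulatory T cells and both dendritic cell classes overlapped, as did those of CD8 T cells and microglia. These levels and those below describe the classes, which were built from the same cells, and were not tested.

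This order depends on 2 abundant members. Without Ifi27l2a and Bst2, the membrane tether that holds budding virus particles, the summed level was 2515 CPM in regulatory T cells and 2067 in plasmacytoid dendritic cells, against 3426 in other dendritic cells. Ifi27l2a alone averaged 2929 ± 307.4 CPM (SD, n = 4 mice) in regulatory T cells and 1049 ± 110 in CD8 T cells. Ranked by the median log2 CPM of the members, which gives each gene the same weight, other dendritic cells came 1st, CD8 T cells 2nd, microglia 3rd, regulatory T cells 4th and plasmacytoid dendritic cells 9th of 12 classes.

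**Figure D1:**
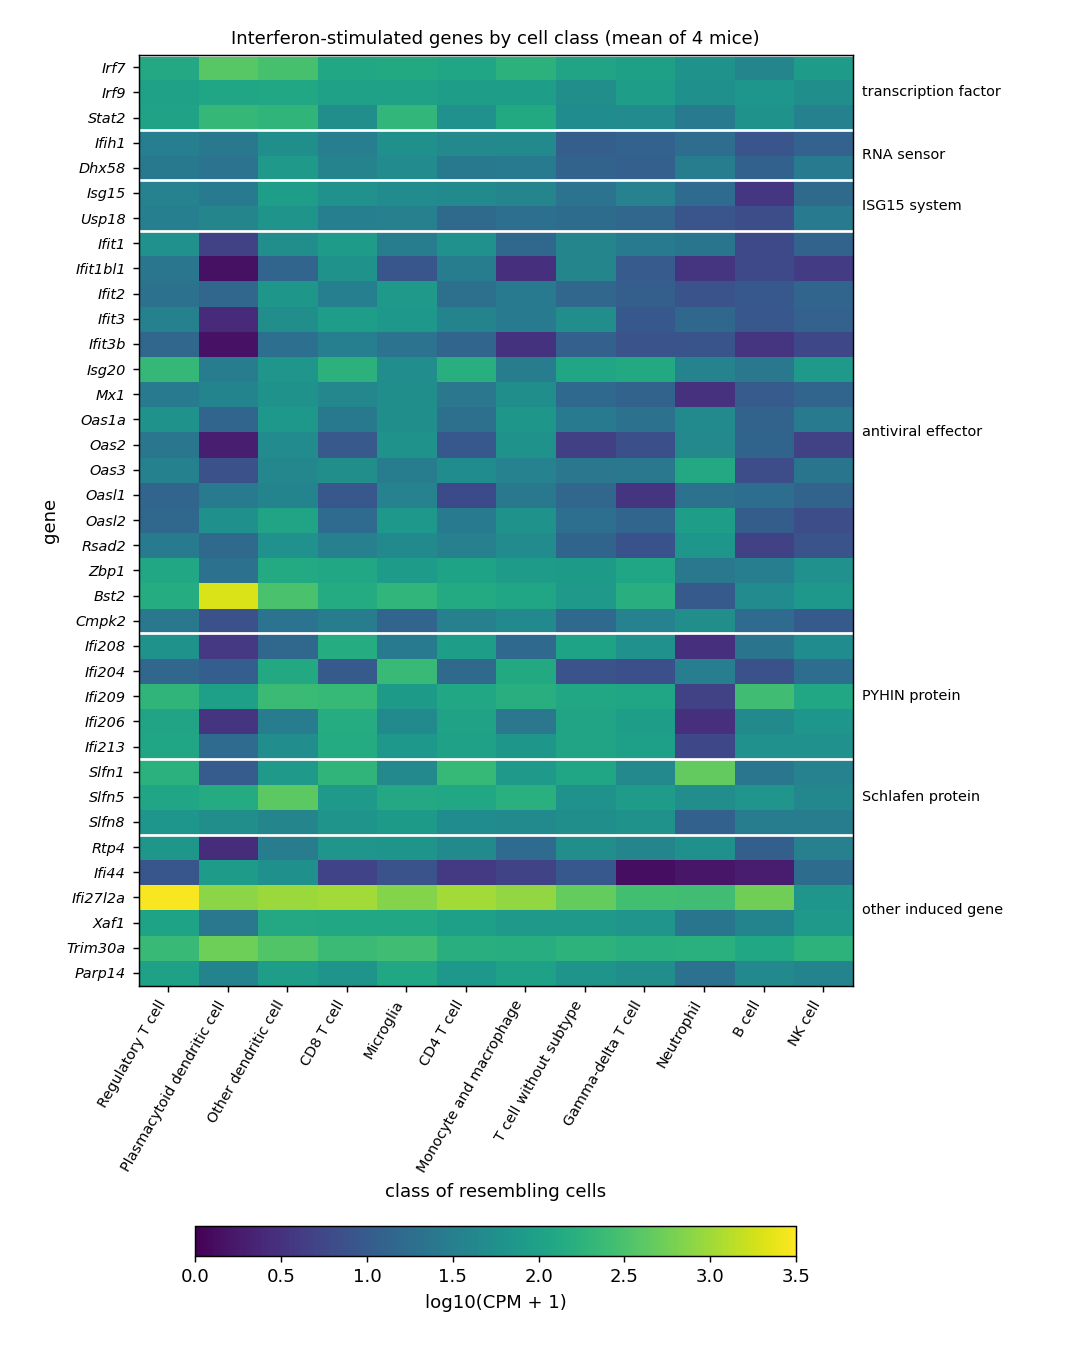
Mean level of each of the 37 members (vertical axis, grouped by role) in 12 cell classes (horizontal axis), as log10(CPM + 1) averaged over the 4 mice. Bst2 stands out in plasmacytoid dendritic cells at 2026 CPM, and Slfn1 and Oas3 in neutrophils. Ifit1, Ifit1bl1, Ifit3, Ifit3b, Ifi206, Ifi208 and Ifi213 have their highest mean in CD8 T cells. Their leads over the next class are between 1.21 and 1.60 times and do not hold in every mouse.

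The class with the highest mean differed between members, often by a small margin. Among the 12 classes with at least 30 cells in each mouse, the highest mean level lay in other dendritic cells for 11 members, in CD8 T cells for 7, in plasmacytoid dendritic cells and in microglia for 5 each, and in neutrophils for 4. The other members peaked in regulatory T cells (Isg20, Rtp4 and Ifi27l2a), in monocytes and macrophages (Oas2) and in B cells (Ifi209). Many leads were small. In other dendritic cells Xaf1 was 1.02, Oas1a 1.05 and Mx1 1.14 times its mean in the next class, against 2.54 times for Slfn5. No member led by CD8 T cells was above its next class in every mouse.

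The transcription factors of the pathway were highest in dendritic cells. Irf7, the factor that amplifies interferon production, averaged 391 ± 40.9 CPM in plasmacytoid dendritic cells and 306 CPM in other dendritic cells, and every mouse was higher in the former class. Stat2 averaged 210 ± 42.0 CPM in plasmacytoid dendritic cells and 207 CPM in microglia, a difference smaller than the spread over mice. Irf9, the DNA-binding part of ISGF3, averaged 126 CPM in other dendritic cells and 116 CPM in plasmacytoid dendritic cells, also within the spread. In neutrophils Stat2 averaged 26.0 CPM, its lowest level among the 12 classes.

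Bst2 was the member most restricted to a class. It measured 2132, 1996, 1925 and 2051 CPM in the plasmacytoid dendritic cells of the 4 mice, 6.51 times its mean in other dendritic cells, the next class. After each cell was thinned to 4000 counts, Bst2 was detected in 99.4% of plasmacytoid dendritic cells, 24.6% of T cells and 2.21% of neutrophils. The part of free RNA in the suspension in these shares was not tested. Bst2, also called PDCA-1, is a known surface marker of mouse plasmacytoid dendritic cells, in which it does not depend on induction.

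Apart from Ifit2, the RNA-binding effectors of the Ifit family had their highest means in CD8 T cells. They were almost absent from plasmacytoid dendritic cells. Ifit1, which blocks translation of viral RNA, averaged 84.2 ± 41.6 CPM in CD8 T cells, 57.6 CPM in CD4 T cells and 3.82 CPM in plasmacytoid dendritic cells. Ifit3 averaged 91.6 ± 41.4 CPM in CD8 T cells and 72.2 CPM in microglia, against 1.67 CPM in plasmacytoid dendritic cells. Ifit2 differed from its neighbours on chromosome 19, with its highest means in microglia (76.5 CPM) and other dendritic cells (70.3 CPM). For all of these the ranges of the leading classes overlapped between mice.

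Of the PYHIN proteins, which bind DNA, 3 were highest in CD8 T cells. There Ifi208 averaged 148 ± 51.5 CPM, Ifi206 145 ± 31.3 CPM and Ifi213 142 ± 49.0 CPM. Other T cells came next, those without a subtype for Ifi208 (107 CPM) and Ifi206 (111 CPM) and regulatory T cells for Ifi213 (117 CPM). CD8 T cells were not above these classes in every mouse. In neutrophils the same genes averaged 1.96, 2.10 and 4.75 CPM. Ifi204, another member of the family, was a myeloid gene here, at 224 ± 68.6 CPM in microglia and 132 CPM in monocytes and macrophages, and every mouse was higher in the former class. Ifi209 averaged 264 ± 54.0 CPM in B cells, within the spread of its 241 CPM in other dendritic cells.

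Neutrophils carried a small set of the members at high level. Slfn1, a Schlafen protein linked to restraint of lymphocyte growth, measured 478, 431, 465 and 457 CPM in neutrophils, 2.10 times its mean in CD4 T cells, and 71.3% of all Slfn1 counts came from neutrophils. Oas3, which makes the oligoadenylates that activate RNase L, averaged 127 ± 15.3 CPM in neutrophils and 52.9 CPM in CD8 T cells. Both genes were higher in the neutrophils of every mouse than in the next class of any mouse. Rsad2 (viperin, which makes a chain-terminating nucleotide) and its chromosomal neighbour Cmpk2 (a nucleotide kinase of mitochondria) averaged 68.0 and 51.9 CPM in neutrophils, with ranges that overlapped those of the next class.

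Isg15, Usp18, Dhx58 and Slfn5 were highest in other dendritic cells. Isg15, a ubiquitin-like modifier, averaged 90.0 ± 9.34 CPM there and 2.61 CPM in B cells. Usp18, the protease that removes ISG15 and dampens receptor signalling, averaged 63.9 ± 23.5 CPM. Dhx58 (LGP2), an RNA sensor, averaged 74.6 ± 26.6 CPM, and every mouse was above the 47.2 CPM mean of microglia. Slfn5 averaged 418 ± 44.95 CPM in other dendritic cells, 2.54 times its mean in monocytes and macrophages. Trim30a, which restrains Toll-like receptor signalling, was highest in another class: it averaged 534 ± 68.3 CPM in plasmacytoid dendritic cells and 354 CPM in other dendritic cells, and its lowest class, B cells, still held 124 CPM.

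Per cell the members were sparse. Of the 16449 cells with at least 4000 counts, thinned to that number, 5.81% held no member and the most frequent number was 2. A cell with at least 5 of the 37 members detected is called a high cell below. The 2807 shallower cells, 13.3% to 15.4% of each mouse, were left out of this count. Ifit1 was detected in 5.26% of all these cells and Slfn1 in 36.0%, so the count of members leans on the abundant genes.

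High cells were most frequent in other dendritic cells, at 63.0% to 74.2% in the untreated mice and 62.7% and 67.7% in the inhibitor mice. Regulatory T cells (53.8% to 63.6% over the 4 mice), plasmacytoid dendritic cells (49.6% to 56.8%), CD8 T cells (40.4% to 63.6%) and microglia (38.7% to 65.8%) followed, with ranges that overlapped. CD4 T cells lay between 32.2% and 38.6%, neutrophils between 19.5% and 25.7% and NK cells between 16.5% and 21.2%. Progenitors had the fewest, 6 high cells of 117 in all 4 mice. The Wilson intervals drawn with these shares cover counting error only.

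**Figure D2:**
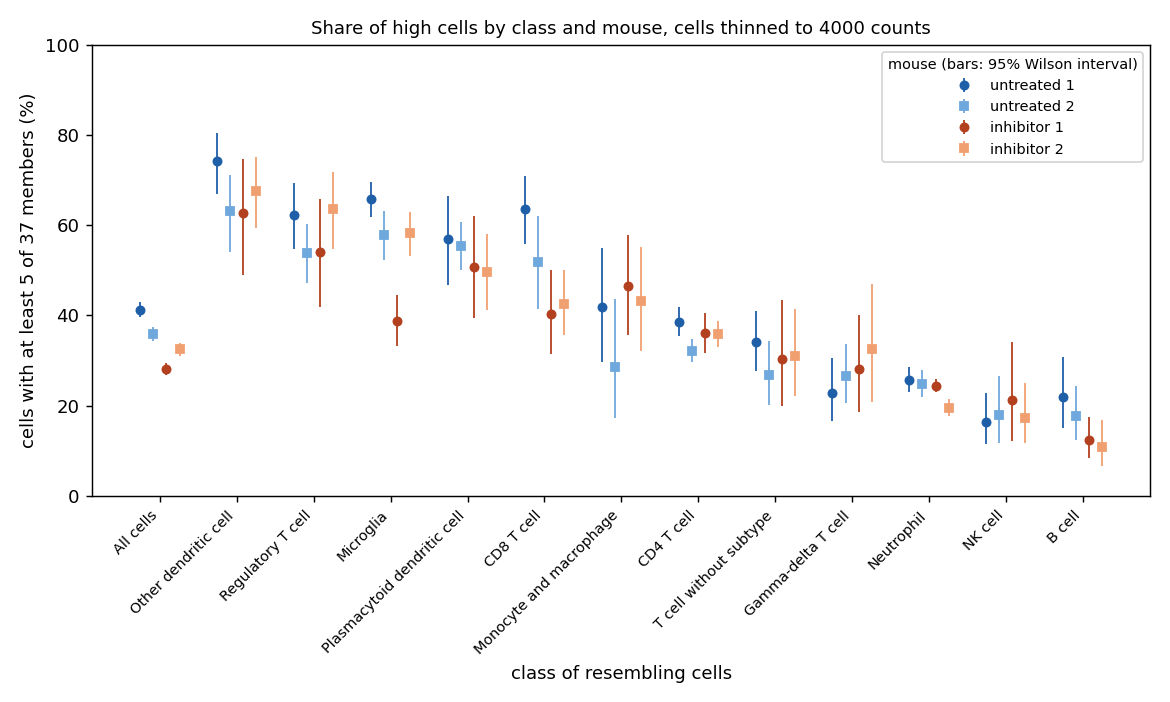
Share of high cells (at least 5 of 37 members detected after thinning to 4000 counts; vertical axis, percent) in each class (horizontal axis) and mouse, with 95% Wilson intervals as bars. In CD8 T cells, B cells, plasmacytoid dendritic cells and neutrophils both inhibitor mice lie under both untreated mice. In gamma-delta T cells and in monocytes and macrophages both lie over them, and in classes such as CD4 T cells the groups overlap.

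Within neutrophils the share of high cells followed the granule genes that separate the clusters. In the cluster led by Fcnb and Chil3, genes of early granulocytes, 1.68% of cells were high. In the cluster led by Ltf, Ngp and Camp, which encode secondary granule proteins, 11.6% were high, and in a cluster led by Mmp8 21.5% were. Clusters led by genes of late neutrophils had more, with 28.0% in the cluster of Ccl6, Retnlg and Clec4d and 39.5% in that of Il1b and Wfdc17. Rsad2 had the same order, at 2.56, 26.6, 57.9, 104 and 180 CPM in these 5 clusters. Slfn1 measured 44.6, 359, 491, 644 and 815 CPM in the same order, and Stat2 only 17.7, 19.6, 27.8, 30.1 and 40.3 CPM. Cmpk2, the chromosomal neighbour of Rsad2, did not follow this order. It measured 37.3, 67.99, 68.3, 54.8 and 36.99 CPM in the same 5 clusters. In each of the 4 mice the Il1b cluster had the highest share of the 5, between 32.1% and 52.3%.

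The microglia fell into 2 clusters that differed in the same way. The cluster led by C4b, Apoe and Ccl2 had 75.2% and 59.8% high cells in the untreated mice and 60% and 71.2% in the inhibitor mice. The cluster led by Fcrls, P2ry12 and Tmem119, the genes of resting microglia, had 33.9% and 40.6%, and 26.8% and 29.8%. Summed over the members these clusters measured 4212 and 2072 CPM. Ifi27l2a measured 923 CPM in the former and 365 CPM in the latter, and Ifit1 37.2 and 11.5 CPM. Cd4, a T cell gene, was detected in 22.4% of the cells of the former cluster and 7.8% of the latter, and the part of T cell transcripts in the difference was not tested. The C4b and Apoe cluster made up 78.8%, 90.9%, 42.0% and 70.2% of the microglia of untreated mice 1 and 2 and inhibitor mice 1 and 2.

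**Figure D3:**
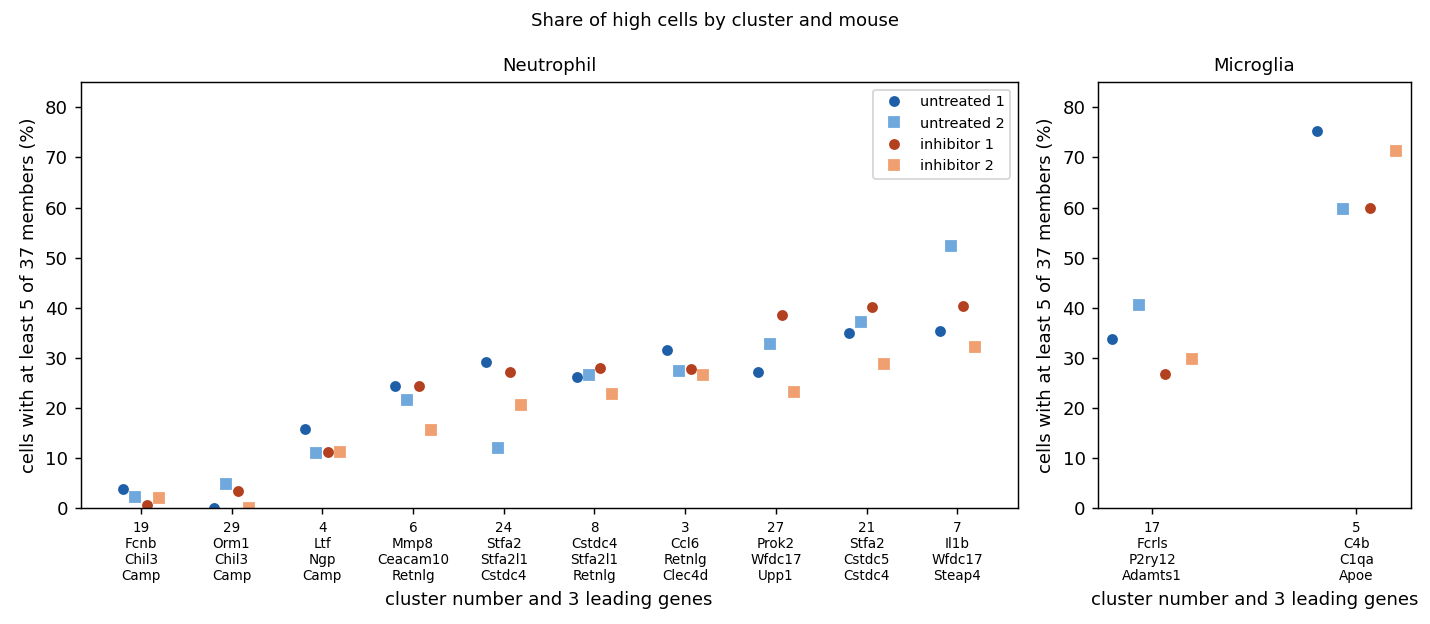
Share of high cells (vertical axis, percent) in the clusters of neutrophils and microglia (horizontal axis, with each cluster's leading genes), 1 point per mouse. In neutrophils the share goes from 1.68% in the Fcnb cluster to 39.5% in the Il1b cluster, and in microglia the C4b and Apoe cluster lies above the P2ry12 cluster in every mouse.

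When the members were kept among the genes used for clustering, they led 2 clusters of their own. The first held neutrophils alone, led by Rsad2, Oasl1, Ifit1, Ifit3, Oasl2 and Oas3. It made up 5.70% and 3.36% of the neutrophils in the untreated mice and 4.69% and 3.43% in the inhibitor mice. The other held 264 cells, 84.1% of them CD4 T cells, and its 10 leading genes were all members, with Ifit1, Ifit3 and Ifit1bl1 at the head. It made up 4.19% and 3.03% of all T cells in the untreated mice and 5.08% and 3.22% in the inhibitor mice, and for both clusters the groups overlapped.

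In neutrophils, T cells and other dendritic cells the pairs seen together most in the same cells were largely Ifit genes and Rsad2. Of neutrophils with Ifit3 detected, 53.8% also held Rsad2, against 9.70% of those without it. Of T cells with Ifit1, 31.3% held Ifit3 and 24.8% held Rsad2, against 3.46% and 2.36% of T cells without Ifit1. In other dendritic cells 58.3% of the 36 cells with Ifit1 held Ifit3, against 4.46% of the rest. Other pairs led elsewhere, such as Usp18 with Ifih1 (phi coefficient of co-detection 0.281) and Isg15 with Oasl2 (0.255) in plasmacytoid dendritic cells. In T cells Ifi206 with Ifi213 (0.292) was among the 5 strongest. Most pairs showed little: the median phi coefficient of co-detection was 0.061 over 496 pairs in neutrophils, 0.094 over 630 pairs in T cells and 0.083 over 666 pairs in microglia. These are counts over cells of the same library. Whether Ifit3 with Ifit3b, the strongest pair in T cells, and Ifi206 with Ifi213 share reads was not tested.

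In T cells and microglia the genes outside the module whose detection went most with the number of members were largely other interferon targets. Across 5656 T cells the leading genes included Rnf213, Gbp6, Gbp7 and Ifi203, with Pearson r between 0.28 and 0.34. Rnf213, a large ubiquitin ligase, was detected in 30.9% of high T cells and 11.6% of the others. Across 1536 microglia Rnf213, Iigp1, Phf11b, Ifitm3 and Ifi211 led, with r between 0.30 and 0.35. Across 6469 neutrophils Oas1g and Gbp7 led with r of 0.23 and 0.22, followed by Wfdc17, Ccl6 and Clec4d, genes that also mark the late neutrophil clusters. The values describe cells that share library and depth and are too weak to be read as a finding in themselves.

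The comparison of inhibitor with untreated mice was made on counts summed per mouse and class, with 2 mice per group. The edgeR quasi-likelihood test with Benjamini-Hochberg adjustment called 0 members at an adjusted p of 0.05 in all cells and in each of 13 classes. The background in these fits was 0% of all genes tested, except 0.0106% in monocytes and macrophages, where 1 gene of 9415 passed. DESeq2 called Ifi208 in all cells (background 2.18%) and Ifi208 and Slfn1 in microglia (background 1.33%), and no other member in any class. What follows therefore gives values and unadjusted p, with no member shown to change.

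CD8 T cells had the most one-sided values. Of the 37 members 35 had a lower fitted level with the inhibitor, as did 49.8% of all genes tested there. The median log2 fold change was -0.60 against 0.00 over all 9957 genes tested, and the members of all 7 roles had a median below 0. At an unadjusted p under 0.05 there were 13 members, all lower, where 4.39% of all genes reached that p. In 22 members both inhibitor mice lay under both untreated mice, against 16.3% of all genes. Leaving out each mouse in turn kept the median between -0.76 and -0.43. The class is 1 cluster of 624 cells. In simulated data of this size the test recovered 3% of 2-fold and 63% of 4-fold changes in well-counted genes.

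Isg20, an exonuclease that degrades RNA, had the smallest p in CD8 T cells. It measured 246 and 197 CPM in the untreated mice and 119 and 136 CPM in the inhibitor mice. The groups did not overlap, and the log2 fold change was -0.80 ± 0.21 (SE), with an edgeR adjusted p of 0.999. The pathway's own factors had the same direction. Stat2 measured 66.9 and 73.5 CPM against 34.5 and 32.6 CPM (log2 fold change -1.08 ± 0.33, edgeR adjusted p = 0.999). Irf9 measured 123 and 133 CPM against 79.5 and 67.9 CPM, a log2 fold change of -0.81 ± 0.25.

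Trim30a and Slfn5 also had groups that did not overlap in CD8 T cells. Trim30a measured 307.7 and 274 CPM against 212 and 177 CPM, and Slfn5 measured 84.8 and 115 CPM against 56.3 and 50.3 CPM. Classic targets had more spread: Ifit1 measured 131 and 68.4 CPM against 103 and 34.9 CPM, and Rsad2 34.3 and 30.8 CPM against 53.3 and 10.4 CPM, so that their groups overlapped. The share of high cells among CD8 T cells was 63.6% (95% interval 55.8% to 70.8%, n = 154 cells) and 51.7% (41.4% to 61.9%, n = 87) in the untreated mice. In the inhibitor mice it was 40.4% (31.5% to 49.99%, n = 104) and 42.6% (35.5% to 50.0005%, n = 176).

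Sums of markers listed for other cell types differed beside these values in the CD8 T cells. A sum does not show which cells its transcripts came from. The 15 neutrophil markers summed to 622 and 484 CPM in the untreated mice and 1402 and 817 CPM in the inhibitor mice. Of these markers 7 were higher and 3 lower in both inhibitor mice. The 14 monocyte and macrophage markers summed to 4070 and 3329 CPM against 2502 and 2316 CPM, with Cd163 at 0 in every mouse. Only 4 of the 14 were lower in both inhibitor mice, and 3 were higher in both. The 13 markers of other dendritic cells summed to 456 and 455 CPM against 244 and 324 CPM, while the 10 T cell markers overlapped, at 7323 and 6369 CPM against 7370 and 6943 CPM. Their part in the members' values was not tested.

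**Figure D4:**
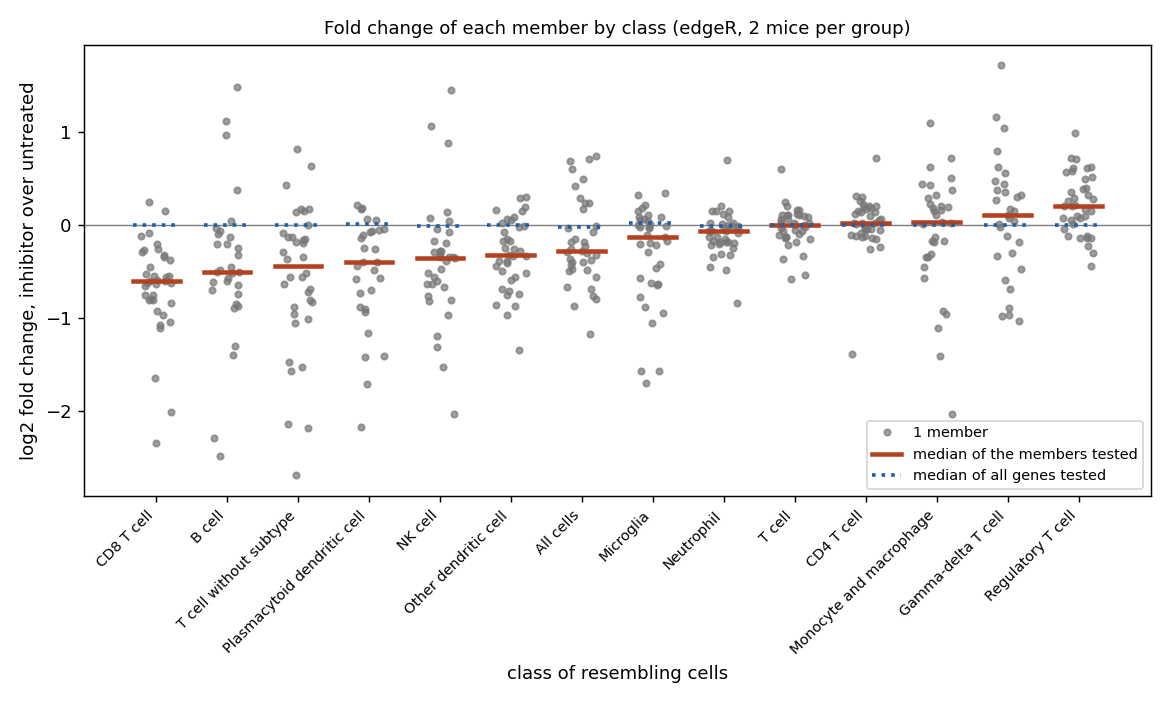
Log2 fold change, inhibitor over untreated, of each tested member (points) in each class (horizontal axis), with the median of the members as a bar. The medians go from -0.60 in CD8 T cells to 0.21 in regulatory T cells, and no point passed an edgeR adjusted p of 0.05.

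B cells, plasmacytoid dendritic cells and other dendritic cells also had medians below 0. In B cells 26 of 31 tested members had a lower fitted level (50.3% of all genes), the median was -0.50, and 6 reached an unadjusted p under 0.05, where 8.22% of all genes did. Irf7 measured 44.95 and 63.7 CPM in the untreated B cells and 19.1 and 24.7 CPM in the inhibitor B cells, without overlap (log2 fold change -1.40 ± 0.40, edgeR adjusted p = 0.545). Irf9 and Stat2 had the same pattern, with Irf9 at 92.9 and 80.3 CPM against 50.4 and 50.4 CPM and Stat2 at 81.1 and 75.6 CPM against 42.9 and 46.0 CPM. Oas2 measured 16.95 and 24.2 CPM against 6.25 and 2.42 CPM and Usp18 10.3 and 8.85 CPM against 1.56 and 1.94 CPM, on 85 and 37 counts in all 4 mice. Of the 31 tested members 10 were lower and 2 higher in both inhibitor mice, against 16.7% and 23.4% of all genes. The B cells lay in clusters whose shares differed between the groups. The cluster led by Igkc, Ighd and Fcmr, genes of mature B cells, made up 43.6% and 72.9% of the untreated mice's B cells and 11.4% and 29.8% of the inhibitor mice's. The cluster led by Vpreb3, a gene of B cell precursors, made up 42.9% and 25.7% against 74.6% and 54.6%. In the B cells the neutrophil markers summed to 1159 and 554 CPM in the untreated mice and 3437 and 1351 CPM in the inhibitor mice. Markers of other dendritic cells there summed to 2344 and 3897 CPM against 1288 and 1764 CPM. Of these 13 markers 5 were lower and 2 higher in both inhibitor mice. The part of the clusters and of these markers in the result was not tested.

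Among plasmacytoid dendritic cells 24 of 29 tested members were lower (49.3% of all genes), with a median of -0.40 and 4 members at an unadjusted p under 0.05 (3.81% of all genes). Zbp1, a sensor of left-handed nucleic acid, measured 29.6 and 27.1 CPM against 10.95 and 10.3 CPM, with a log2 fold change of -1.41 ± 0.47 and an edgeR adjusted p of 1. Isg15 measured 36.5 and 31.7 CPM against 15.5 and 19.5 CPM. The abundant marker Bst2 measured 2132 and 1996 CPM against 1925 and 2051 CPM, so its groups overlapped. The groups of Zbp1 and Isg15 did not overlap. The same held for Ifi213, which had the smallest p there, at 38.6 and 12.99 CPM against 7.30 and 4.11 CPM. Parp14 measured 57.1 and 39.2 CPM against 25.6 and 25.2 CPM and Rsad2 24.8 and 21.1 CPM against 13.7 and 1.54 CPM, again without overlap. Of the 29 tested members 15 were lower and 0 higher in both inhibitor mice, against 17% and 16.3% of all genes.

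Other dendritic cells had 28 of 37 members lower (50.5% of all genes), a median of -0.32 and 4 members at an unadjusted p under 0.05 (4.25% of all genes). Ifit2 measured 101 and 102 CPM in the untreated mice and 31.3 and 47.3 CPM in the inhibitor mice, a log2 fold change of -1.34 ± 0.29 (edgeR adjusted p = 0.999). Usp18 measured 86.5 and 80.5 CPM against 51.5 and 37.1 CPM, and Ifi204 174 and 154 CPM against 101 and 97.8 CPM. None of the 3 overlapped between groups. Rsad2 measured 72.2 and 75.4 CPM against 54.8 and 31.1 CPM and Ifi209 276 and 267 CPM against 197 and 224 CPM, also without overlap. Of the 37 members 15 were lower and 2 higher in both inhibitor mice, against 16.1% and 17.5% of all genes. Beside these values, the 10 T cell markers in this class summed to 806 and 1447 CPM against 724 and 763 CPM, and the NK cell markers to 312.8 and 217 CPM against 114 and 196 CPM. The neutrophil markers were at 7016 CPM in untreated mouse 2 and between 808 and 1346 CPM in the other mice. The part of these transcripts was not tested.

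NK cells had 28 of 34 tested members lower (51.1% of all genes), with a median of -0.35 and 3 at an unadjusted p under 0.05 (4.24% of all genes). Isg20 measured 138 and 108 CPM against 15.6 and 40.9 CPM, a log2 fold change of -2.04 ± 0.43 with an edgeR adjusted p of 0.999. Ifi204 measured 26.2 and 25.4 CPM against 6.50 and 10.7 CPM and Irf7 72.9 and 144 CPM against 71.5 and 40.4 CPM, both lower in both inhibitor mice. Ifi44 measured 9.35 and 11.4 CPM against 23.4 and 19.95 CPM, higher in both inhibitor mice. Slfn1 measured 21.97 and 14.03 CPM against 80.6 and 21.998 CPM, so that its groups met. Of the 34 tested members 13 were lower and 2 higher in both inhibitor mice, against 17.9% and 16.1% of all genes. The neutrophil markers in NK cells summed to 850 and 504 CPM in the untreated mice and 9300 and 2791 CPM in the inhibitor mice. T cells without a subtype had a median of -0.44, with 29 of 36 tested members lower (50.2% of all genes) and 5 at an unadjusted p under 0.05 (4.73% of all genes). Usp18 measured 30.5 and 28.1 CPM there in the untreated mice, and 0 and 7.52 CPM in the inhibitor mice. Oasl1 measured 18.05 and 26.1 CPM against 4.97 and 4.70 CPM, and Slfn5 71.3 and 111 CPM against 51.4 and 14.1 CPM. Ifi206 measured 116 and 160.1 CPM against 91.1 and 77.1 CPM, and Slfn8 68.3 and 74.6 CPM against 46.4 and 27.3 CPM. None of these 5 genes overlapped between the groups. Of the 36 tested members 13 were lower and 2 higher in both inhibitor mice, against 19% and 15.5% of all genes.

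Slfn1 in microglia had the smallest p of any member in any class. Both Slfn1 and Ifi208 had higher mean levels in some other classes. Slfn1 averaged 458 CPM in neutrophils and 218 CPM in CD4 T cells, and Ifi208 148 CPM in CD8 T cells. Slfn1 measured 53.7 and 77.0 CPM in the untreated mice and 23.1 and 22.5 CPM in the inhibitor mice, with a log2 fold change of -1.57 ± 0.28 and an edgeR adjusted p of 0.160. Ifi208 measured 29.7 and 50.8 CPM against 10.3 and 14.9 CPM, with a log2 fold change of -1.70 ± 0.36 and an edgeR adjusted p of 0.185. Neither gene overlapped between the groups. Isg20 measured 47.9 and 87.8 CPM against 23.1 and 43.7 CPM, and Ifit1bl1 9.14 and 13.6 CPM against 2.13 and 5.44 CPM, also without overlap, while Oas3 20.8 and 54.1 CPM against 14.00 and 25.4 CPM overlapped. Over all 37 members the median was -0.13, and 4 members reached an unadjusted p under 0.05, below the 11.9% of all genes that did. In 7 members both inhibitor mice lay under both untreated mice and in 2 over them, against 20.4% and 25.6% of all genes.

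T cell transcripts were lower in the same direction in the microglia. The 10 T cell markers summed to 1414 and 3051 CPM in the untreated mice and 301 and 613 CPM in the inhibitor mice, and each of the 10 was lower in both inhibitor mice, with none at 0. The microglia markers summed to 26008 and 18405 CPM against 35062 and 29730 CPM, and 13 of 14 were higher in both inhibitor mice. In the microglia without any count of the T cell markers (171, 48, 139 and 146 cells, a subset chosen after seeing the data), the log2 fold change of Slfn1 was -0.32, that of Isg20 was -0.10 and that of Ifi208 was 0.41. In the microglia without S100a8 or S100a9 counts, also chosen after seeing the data, Slfn1 was at -1.56 and Ifi208 at -1.75. The fold changes of these subsets are given without their spread. The part of T cell or neutrophil transcripts in the members' values was not tested.

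The 2 microglia clusters, taken alone after seeing the data, had member medians of 0.10 (C4b and Apoe) and 0.04 (P2ry12). The share of high microglia was 65.8% and 57.8% in the untreated mice and 38.7% and 58.2% in the inhibitor mice, so the groups overlapped. Inhibitor mouse 1, the lowest, was also the mouse in which the C4b and Apoe cluster made up 42.0% of the microglia. Without inhibitor mouse 2 the member median in microglia was -0.74 and 8 members passed, among them Ifi206, Ifi209, Ifit1, Usp18 and Zbp1 (background 2.69%).

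**Figure D5:**
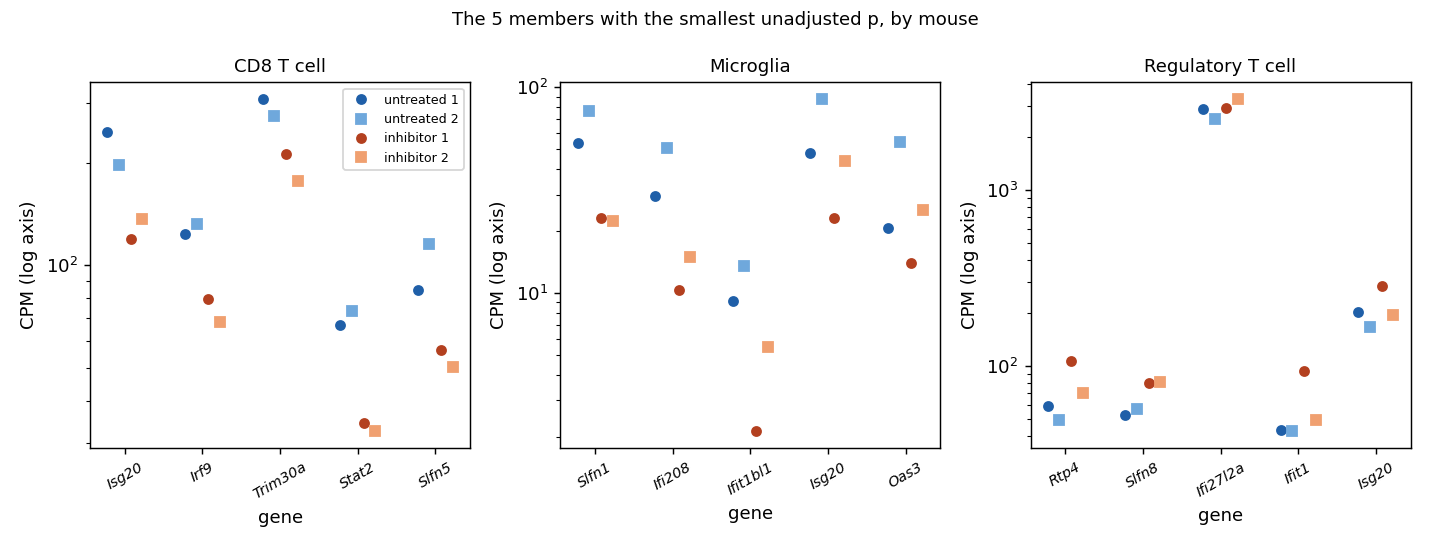
Level in each mouse (vertical axis, CPM on a log scale) of the 5 members with the smallest unadjusted p in CD8 T cells, microglia and regulatory T cells, untreated and inhibitor mice as separate points. Isg20 in CD8 T cells and Slfn1 in microglia are lower in both inhibitor mice, and Rtp4 in regulatory T cells is higher in both.

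In neutrophils, the class with the most cells, the median log2 fold change lay near 0 and its sign depended on 1 mouse. It was -0.07 with all mice, -0.27 without untreated mouse 2, 0.12 without untreated mouse 1, and -0.26 with cells thinned to 4000 counts. With all mice 0 members reached an unadjusted p under 0.05, where 4.84% of all genes did. Slfn1 measured 478 and 431 CPM against 465 and 457 CPM. Parp14, an ADP-ribosyltransferase and the member with the smallest p, measured 21.4 and 20.5 CPM against 18.4 and 15.5 CPM, a log2 fold change of -0.32 ± 0.17. Of the next members by p, Ifit1 measured 30.9 and 17.6 CPM against 18.9 and 20.1 CPM, Ifit3 20.6 and 11.9 CPM against 9.43 and 14.5 CPM and Oasl1 26.9 and 18.01 CPM against 20.2 and 11.9 CPM, and all 3 overlapped. Ifi208 measured 1.73 and 1.25 CPM against 2.95 and 1.89 CPM. The share of high neutrophils was 25.7% and 24.8% against 24.4% and 19.5%, without overlap but with little distance between the groups. Without untreated mouse 2, edgeR called Ifi204, Ifi27l2a, Ifit1, Ifit3, Oasl1 and Rsad2 (background 1.93%). Without untreated mouse 1 it called Ifi27l2a alone (background 5.19%), in the opposite direction. Ifi27l2a measured 343 and 176 CPM in the untreated mice and 265 and 265 CPM in the inhibitor mice, and its log2 fold change was -0.37 without untreated mouse 2 and 0.56 without untreated mouse 1. In simulated neutrophil data of this size 49% of 2-fold and 100% of 4-fold changes in well-counted genes were recovered.

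The larger T cell classes gave medians near 0. Over all T cells the median was 0.00 and 1 member reached an unadjusted p under 0.05 (3.96% of all genes), and in CD4 T cells the median was 0.02, also with 1 member (3.71%). In both it was Ifih1 (MDA5), the sensor of long double-stranded RNA, at 29.2 and 27.00 CPM against 46.98 and 38.4 CPM over all T cells. Ifih1 measured 36.6 and 29.3 CPM in untreated CD4 T cells and 63.6 and 45.6 CPM in inhibitor CD4 T cells, a log2 fold change of 0.72 ± 0.21 with an edgeR adjusted p of 1. The next members by p in CD4 T cells did not share a direction. Isg15 measured 43.4 and 35.6 CPM against 54.1 and 43.7 CPM and Xaf1 89.6 and 85.1 CPM against 107 and 94.8 CPM, both higher in both inhibitor mice. Ifi44 measured 7.65 and 0.978 CPM against 1.27 and 1.82 CPM and Ifi208 92.2 and 98.7 CPM against 95.2 and 66.1 CPM, both with overlap. Over all T cells the next members were Oasl1, at 8.05 and 7.60 CPM against 7.67 and 3.45 CPM, Oas2, at 10.7 and 10.3 CPM against 6.68 and 9.26 CPM, Usp18, at 25.4 and 15.8 CPM against 17.3 and 15.1 CPM, and Stat2, at 67.4 and 62.98 CPM against 49.8 and 63.2 CPM, of which Oas2 did not overlap. In CD4 T cells 0 of the 37 members were lower and 6 higher in both inhibitor mice, against 16.5% and 15.4% of all genes. Over all T cells 2 were lower and 2 higher, against 17.3% and 14.5% of all genes. High cells made up 38.6% and 32.2% of CD4 T cells in the untreated mice and 36.0% and 35.8% in the inhibitor mice.

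Regulatory T cells leaned the other way. Only 9 of the 37 members had a lower fitted level (49.9% of all genes), the median was 0.21, and 0 reached an unadjusted p under 0.05 (3.6% of all genes). Rtp4 measured 58.9 and 49.1 CPM against 106 and 70.1 CPM, a log2 fold change of 0.70 ± 0.32. Slfn8 measured 52.3 and 56.5 CPM against 79.8 and 80.9 CPM. Ifi27l2a measured 2902 and 2554 CPM against 2953 and 3306 CPM. These 3 did not overlap between groups, which 6 members did upward in this class against 15.2% of all genes. Ifit1 measured 43.2 and 42.5 CPM against 93.5 and 49.4 CPM, also without overlap, and Isg20 203 and 165 CPM against 285 and 193 CPM, with overlap. The lean depended on inhibitor mouse 1 and on the clustering: the median was 0.063 without that mouse, 0.085 with doublet calls kept and 0.020 with the members kept among the clustering genes.

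The remaining classes showed no common direction. Gamma-delta T cells had a median of 0.11 and 0 members at an unadjusted p under 0.05 (4.91% of all genes). There Stat2 measured 70.5 and 59.9 CPM against 42.6 and 21.1 CPM, Slfn1 50.3 and 64.5 CPM against 14.2 and 46.1 CPM and Slfn5 110.1 and 89.1 CPM against 53.7 and 80.7 CPM. In the other direction Isg20 measured 131 and 92.7 CPM against 148 and 165 CPM and Ifih1 6.04 and 4.61 CPM against 11.1 and 24.98 CPM. None of these 5 overlapped between the groups. Of the 31 tested members 5 were lower and 6 higher in both inhibitor mice, against 18.3% and 16.9% of all genes. Monocytes and macrophages had a median of 0.03 and 2 members (3.65%), and leaving out 1 mouse moved the median to -0.61 (without inhibitor mouse 2) or 0.33 (without untreated mouse 1). Rsad2 measured 64.5 and 76.2 CPM in untreated monocytes and macrophages and 25.8 and 27.6 CPM in the inhibitor mice, a log2 fold change of -1.40 ± 0.46. Ifi206 measured 53.2 and 22.1 CPM against 7.47 and 11.05 CPM and Bst2 148 and 127 CPM against 71.3 and 115 CPM, also without overlap. Oas2 measured 129 and 35.6 CPM against 21.1 and 56.2 CPM and Ifi213 149 and 34.4 CPM against 25.1 and 70.9 CPM, with overlap. Of the 33 members tested in this class 5 were lower and 5 higher in both inhibitor mice, against 14.9% and 15.7% of all genes. Beside these, the 10 T cell markers in the class summed to 519 and 845 CPM against 183 and 247 CPM, with 9 lower in both inhibitor mice. The neutrophil markers summed to 2097 and 2408 CPM against 4681 and 9952 CPM, and the part of either was not tested. High cells there were 41.8% and 28.6% against 46.6% and 43.3%, on 42 to 73 cells per mouse.

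Over all cells together, 27 of 37 members had a lower fitted level (53.1% of all genes), with a median of -0.28 against -0.03 for all genes. At an unadjusted p under 0.05 there were 8 members, where 10.3% of all genes were, and 18 members were lower in both inhibitor mice, against 39.9% of all genes. The 5 PYHIN members were all lower, with Ifi208 at 47.5 and 49.6 CPM against 19.3 and 27.4 CPM (log2 fold change -0.87 ± 0.17, edgeR adjusted p = 0.458). Ifi213 measured 70.5 and 65.2 CPM against 25.6 and 43.4 CPM, Ifi206 58.9 and 57.3 CPM against 22.02 and 41.8 CPM and Ifi209 110.4 and 109.6 CPM against 54.2 and 83.2 CPM. Ifit1bl1 measured 18.1 and 13.6 CPM against 6.45 and 11.2 CPM, and none of these overlapped. Slfn1 and Cmpk2 had the opposite sign, with Slfn1 at 209 and 195 CPM against 341 and 235 CPM. Without inhibitor mouse 2, edgeR called 10 members over all cells (background 7.49%), among them Ifi208, Ifi213, Slfn1 and Stat2.

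The share of high cells over all cells was 41.3% and 35.9% in the untreated mice and 28.1% and 32.5% in the inhibitor mice, a difference of -8.31 percentage points. When the 12 classes were given equal weight, a choice made after seeing the data, the shares were 43.7% and 38.0% against 37.1% and 39.3%, and the groups overlapped. The summed level of the members was 3382 and 2994 CPM against 2262 and 2685 CPM over all cells. With equal weights it was 3501 and 3165 CPM against 3080 and 3062 CPM, so that the groups still did not overlap but lay closer together.

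Whether the contrast differed between neutrophils and T cells was tested directly, with the mouse as a block. The edgeR interaction called 0 of the 37 members (0% of 17875 genes), and 1 reached an unadjusted p under 0.05 (3.92% of all genes). That member was Ifi208, at -0.81 ± 0.30 for T cells minus neutrophils on the log2 scale (edgeR adjusted p = 1), a gene at under 3 CPM in the neutrophils of every mouse.

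Of the genes upstream of the module, interferons were nearly absent from the matrix. It held 5 of 21 listed ligand genes. Ifnb1 was counted in 27 cells, 23 of them microglia, at 3.12 and 3.35 CPM in the untreated microglia and 0.913 and 4.91 CPM in the inhibitor microglia. Ifna2 was counted in 5 cells, all microglia. The interferon lambda gene Ifnl2 was counted in 7 plasmacytoid dendritic cells, at 4.13 and 3.41 CPM in the untreated mice and 0 in both inhibitor mice, on 22 counts in total. Interferon gamma was far more frequent: Ifng averaged 385 ± 36.7 CPM in CD4 T cells and 352 ± 38.8 CPM in NK cells. Both receptor genes were highest in plasmacytoid dendritic cells, with Ifnar1 at 261 ± 51.5 CPM and Ifnar2 at 341 ± 28.6 CPM.

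Other interferon targets had the members' direction in CD8 T cells. Of 59 further interferon-stimulated genes 50 were tested there, 0 were called, 44 had a lower fitted level and the median was -0.33. Of 20 genes induced by interferon gamma 17 were tested, 0 were called, 16 were lower and the median was -0.58. Of all genes tested in CD8 T cells 49.8% were lower. Gbp2, a guanylate-binding protein that attacks membranes around pathogens, measured 160 and 112 CPM against 78.0 and 74.7 CPM (log2 fold change -0.85 ± 0.26, edgeR adjusted p = 0.999). In neutrophils Gbp2 measured 38.7 and 32.98 CPM against 20.1 and 22.9 CPM, a log2 fold change of -0.75 ± 0.15 with an edgeR adjusted p of 0.985. In regulatory T cells the same lists had medians of 0.19 and 0.11. The interferon gamma list had a median below 0 in every other fit too, but of differing size. It was -0.69 over all cells, which carries the difference in composition, and -0.54 in plasmacytoid dendritic cells. In monocytes and macrophages it was -0.48, in neutrophils -0.39 and in other dendritic cells -0.37. It was smaller over all T cells (-0.20), in T cells without a subtype (-0.14) and in CD4 T cells (-0.06). In CD4 T cells 12 of the 19 tested genes were lower, as were 49.8% of all genes. For the 10 receptor and signalling genes the median was -0.04 in CD8 T cells.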

How the data were processed

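The cells were CD45+ and came from the spinal cords of 4 mice, with RNA counted per cell. The deposited values are whole-number counts per gene and cell, not normalized by the authors. The submitters' processing notes name GRCm38. The aligner, the counter, the use of strand and the meaning of a count (read or molecule) were not given in the sources used here. Every cell's column, per the file headers, names its hashtag, which gave its mouse. Cells over 20% mitochondrial counts (1014) and 1248 called doublets were removed, leaving 19256 with 223382626 counts. Clusters (leidenalg 0.10.2, resolution 2.0, raised from 1.0 after monocytes failed to separate) were built without the members and named from marker lists. Members and lists were chosen with earlier results of these data known. Counts were summed per mouse and class and tested with edgeR 4.0.16 (quasi-likelihood, TMM, filterByExpr) at an adjusted p of 0.05. Alternatives were DESeq2 1.42.0, RLE scaling, no filter, a replicate block, each mouse left out, other cell filters and thinning. In each class the 5 members with the smallest p are named with every mouse's value, and further members where a sentence needs them. The edgeR script was tested on simulated data. These gave every gene of a fit the same dispersion and placed changes only in well-counted genes. Recovery for sparsely counted members was not simulated. The hashtag library was not analysed here. One signalling gene is not reported here.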

Additional observations from a re-analysis of the deposited data

How the results depend on the processing

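The members called over all cells were 0 with edgeR, 1 with DESeq2, and 0 to 10 when each mouse was left out in turn, the highest without inhibitor mouse 2. Summed over the classes the number was 0 with edgeR, 2 with DESeq2, 5 without a filter on low counts, 1 with cells thinned to 4000 counts, and 4 to 16 with each mouse left out. A fit with the replicate number as a block called 3, all in microglia (Ifi208, Isg20 and Slfn1, background 3%). The numbers only name the mice. The difference between untreated mice 1 and 2 correlated with that between inhibitor mice 1 and 2 at -0.21 to 0.13 over genes. With the numbers crossed, a pairing tried after seeing the data, the block called 1, Slfn1. The median log2 fold change of the members in microglia ranged from -0.74 to 0.13 with each mouse left out. The difference in the share of high cells over all cells was -8.31 points, -4.29 when a member needed 2 counts, and, in choices made after seeing the data, -1.85 at 12 members and -2.62 with equal class weights. Of the 5 members with the smallest p in each class, these changed sign when a mouse was left out: Ifi44 in CD4 T cells (-2.23 to 0.69), Oas2 (-1.94 to 0.063) and Ifi213 (-1.85 to 0.43) in monocytes and macrophages, Ifit1 in neutrophils (-0.66 to 0.12) and Usp18 in T cells (-0.65 to 0.045). Thinning turned Rsad2 in other dendritic cells to 0.056 and Oas2 in T cells to 0.25, and leaving out microglia with T cell marker counts turned Ifi208 to 0.41. The cause was not tested. Simulated recovery with 2 mice per group, in well-counted genes, differed between fits. Of 2-fold changes, 56% were recovered in T cells, 49% in neutrophils, 18% over all cells and in microglia, and 3% in CD8 T cells.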

Other observations

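Erythroid cells, 89 in all and under 30 in each mouse, took no part in the comparison of classes, but held 2 members at levels above their means in all 12 classes. Rsad2 was counted in 46 of the 89 cells and measured 393 and 238 CPM in the untreated mice and 870 and 364 CPM in the inhibitor mice. Isg20 was counted in 56 of the 89 cells and measured 344 and 458 CPM against 358 and 223 CPM. For both genes the groups overlapped.

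Of the 2 clusters left without a name, the larger (230 cells, led by Gzmk, Dtx1 and Ccl5) held the module widely. High cells made up 51.1%, 44.0%, 48.1% and 62.5% of it in untreated mice 1 and 2 and inhibitor mice 1 and 2. Ifi208 was among its 10 leading genes, although the members had no part in the clustering. The other, of 21 cells led by Ccl22, Fscn1 and Ccr7, the genes of migrating dendritic cells, was too small for a value per mouse.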
